A study of Homo sapiens with 4 samples.

Results

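The replication-independent histone variants are the histone genes that are transcribed outside the S-phase histone clusters, and 9 of them are described here in the PRMT5 knockdown RNA-seq of UMSCC74B cells. They were chosen by gene name (H2AFZ, H2AFX, H2AFV, H2AFY, H2AFJ, H3F3A, H3F3B, CENPA and H1FX) from 29655 distinct names in the count tables. The rule used no measured value, although earlier results of these data were known when it was set. UMSCC74B is an established cell line from a squamous carcinoma of the head and neck, with the genotype WT in the labels. The series comprised 2 control libraries from cells given a control shRNA and 2 libraries labelled PRMT5 KD from cells given a PRMT5 shRNA, all from total RNA and collected after 72 h. The labels describe plasmid transfection, whereas the methods describe lentiviral particles, and neither says whether the 2 libraries of a group came from separate cultures, so that p-values measure only the spread between these libraries.

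Nucleosomes wrap DNA around 2 copies each of H2A, H2B, H3 and H4, and the bulk of these proteins is made in S phase from clustered genes whose mRNAs end in a stem-loop instead of a poly(A) tail. The variants are encoded by single genes outside the clusters, their mRNAs are mostly polyadenylated, and dedicated chaperones place the proteins at particular sites. H3.3 marks active genes and telomeres, H2A.Z flanks promoters, H2AX is phosphorylated next to DNA breaks, and CENP-A defines the centromere. MacroH2A is associated with compact chromatin, and H1X is a linker histone. PRMT5 is an arginine methyltransferase that places symmetric dimethylarginine on histone H3, H4 and H2A tails as well as on RNA-binding proteins.

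The transcript of PRMT5 did not follow the label of the libraries. PRMT5 reached 94.3 and 84.3 CPM in control (counts per 1000000, on the scale of the TMM normalization factors) against 132 and 149.5 CPM with the PRMT5 KD label, a log2 fold change of 0.66 ± 0.12 (SE, 2 libraries per group; adjusted p = 0.00549, edgeR quasi-likelihood test). Without control 2 the log2 fold change of PRMT5 was 0.58 and no longer passed the test (adjusted p = 0.0667). The study describes an immunoblot check of the silencing, which runs the way the labels say, and protein was not analysed here. All directions below are therefore between libraries as labelled. Between 52185289 and 65964558 counts per library fell on named genes. Of 8 squamous epithelial markers, KRT5, KRT14, KRT6A and CDH1 stayed below 0.5 CPM in every library. Only TP63 and DSG3 passed the filter, and both were lower. The summed level of the list was 43.8 to 49.8 CPM in control and 22.7 to 31.6 CPM under the PRMT5 KD label. Most of this sum was DSG3 (43.0 and 36.4 CPM in control, 18.8 and 25.4 CPM under the PRMT5 KD label). The untested KRT17 went the other way (0.126 and 0.120 CPM in control, 1.11 and 1.48 CPM under the PRMT5 KD label). So did KRT14, from 0 in control to 0.231 and 0.456 CPM, and the groups overlapped for EPCAM. Of 5 fibroblast markers, 4 were tested and all 4 were lower, with a summed level of 446 to 543 CPM in control and 50.9 to 66.8 CPM under the PRMT5 KD label. Of 3 immune markers, CD68 was the single one tested and was higher (summed level 94.7 to 113 CPM and 152 to 169.6 CPM), while CD3E was at 0 and PTPRC was at or near 0. Of 3 endothelial markers, PECAM1 was the single one tested and was lower (summed level at least 10.1 CPM in control and at most 1.01 CPM under the PRMT5 KD label). All 12 cell cycle markers were higher, against 21.2% of all genes tested. Their summed level was 993 and 755 CPM in control and 2848 and 2947 CPM under the PRMT5 KD label. The part of these differences in the results on histone variants was not tested, and in bulk RNA a change in the mix of cells and a change in RNA per cell cannot be told apart.

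Under the PRMT5 KD label, 6 of the 9 variant genes were higher, 1 was lower and 2 did not pass the test. The genes that rose were H2AFX, H3F3B, H2AFZ, CENPA, H1FX and H2AFY, and the gene that fell was H2AFJ. H3F3A and H2AFV did not pass. All 9 passed the filter on low values. A gene counted as called with an adjusted p under 0.05 and a log2 fold change of 0.5 or more in either direction. Among all 11898 genes tested, 45.5% were called, 21.2% as higher and 24.3% as lower, so that a call by itself set no gene apart. The median log2 fold change was 0.85 over the 9 variants and -0.01 over all genes tested. Of all calls, 46.5% were higher with TMM factors and 61.4% with total counts of the tested genes as the scale. That scale moved the median of all genes to 0.17, while the variants kept 6 higher and 1 lower. Total counts as a scale are this sum over tested genes throughout, not the counts on all named genes. The CPM values of the 2 groups did not overlap for 8 of the 9 variants and for 80.5% of all genes tested. Leaving out control 2 lowered the number of genes called from 5416 to 3102 (1357 higher, 1745 lower) and the number of variants called from 7 to 6.

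**Figure D1:**
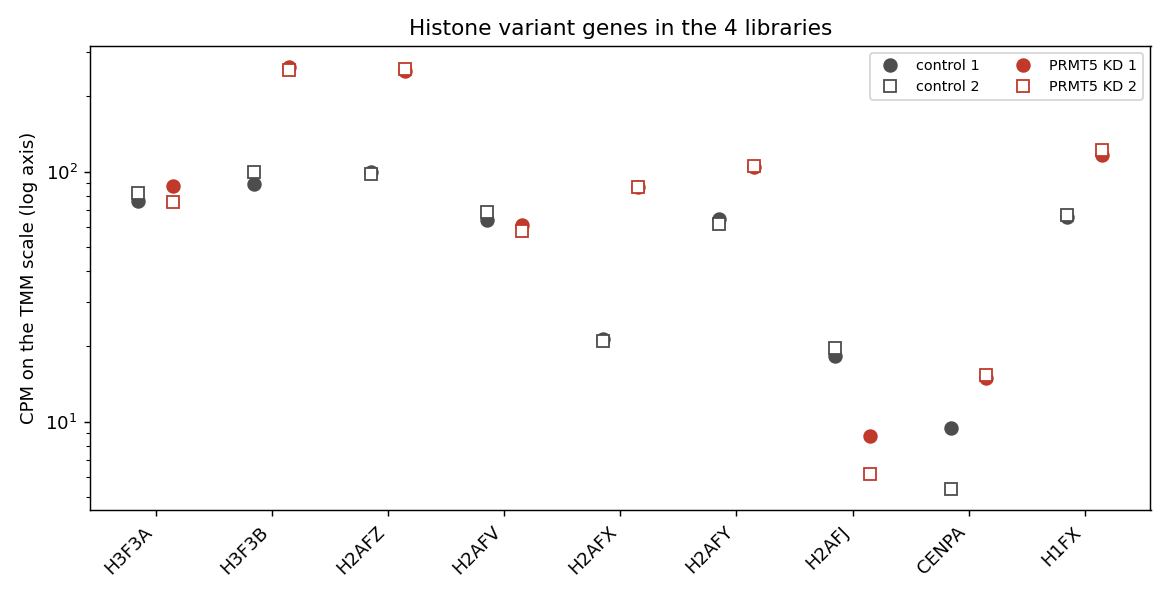
CPM on the TMM scale (log axis) of the 9 histone variant genes, with control libraries in grey, libraries labelled PRMT5 KD in red, circles for replicate 1 and open squares for replicate 2. The groups are separate for every gene but H3F3A, and the control libraries of CENPA, at 9.42 and 5.36 CPM, lie farther apart than those of the other 8 genes.

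**Figure D2:**
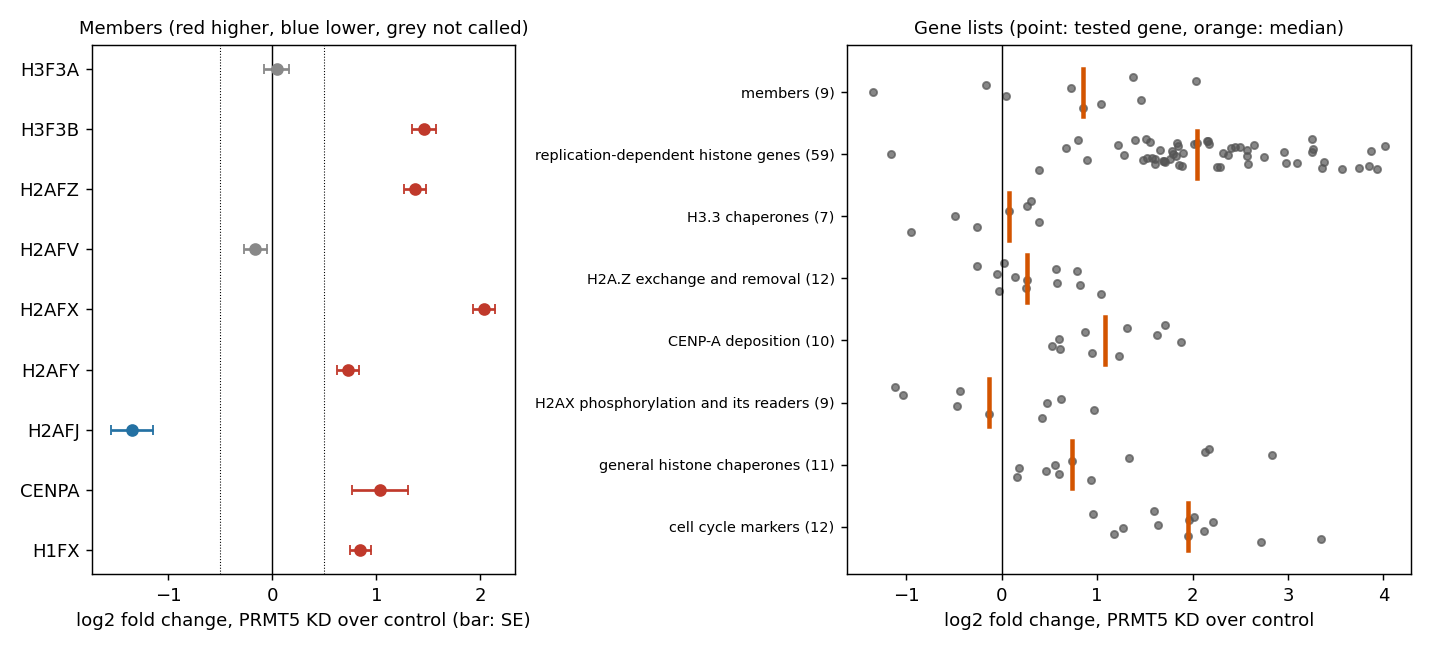
Left, log2 fold change of each variant gene in the libraries labelled PRMT5 KD over control, with the SE as bar and dotted lines at the fold change threshold of 0.5. Right, the same quantity for each tested gene of the gene lists (points, number tested in brackets), with the median as an orange line, which lies at 0.85 for the 9 variants (members), 2.04 for the replication-dependent histone genes and 0.08 for the H3.3 chaperones.

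H3.3 is made from a pair of genes that encode the same protein, of which H3F3B was higher and H3F3A did not pass the test. H3F3A (chr1:226061851-226072019, GRCh38, plus strand, GENCODE gene H3-3A, 4 exons in the MANE transcript) had 76.0 and 82.3 CPM in control and 87.5 and 75.4 CPM under the PRMT5 KD label. The groups overlapped, and the log2 fold change was 0.04 ± 0.12 (adjusted p = 0.791). H3F3B (chr17:75776434-75785893, minus strand, H3-3B, 4 exons) had 88.8 and 99.7 CPM in control and 262 and 256 CPM under the PRMT5 KD label. Both libraries labelled PRMT5 KD lay far above both controls, a 2.74-fold difference (log2 fold change 1.46 ± 0.12, adjusted p = 0.000412). The sign of the H3F3A value turned when length and GC content were corrected for (log2 fold change -0.13), without a call.

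The promoters of the pair are shown because the genes encode the same protein, while 1 of the 2 passed the test. Both were read from RefSeq promoters on GRCh38.p14, from 250 bases before to 50 bases after the transcript start, and capitals mark CCAAT boxes on either strand (CCAAT or its complement ATTGG).
H3F3A, chr1:226062466-226062765, plus strand: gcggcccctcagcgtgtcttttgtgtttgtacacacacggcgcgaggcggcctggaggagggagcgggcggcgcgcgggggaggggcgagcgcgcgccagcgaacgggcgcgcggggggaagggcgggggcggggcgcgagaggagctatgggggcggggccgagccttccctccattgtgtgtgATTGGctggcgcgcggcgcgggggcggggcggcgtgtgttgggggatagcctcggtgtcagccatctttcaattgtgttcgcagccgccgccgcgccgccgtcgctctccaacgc
H3F3B, chr17:75779730-75780029, minus strand: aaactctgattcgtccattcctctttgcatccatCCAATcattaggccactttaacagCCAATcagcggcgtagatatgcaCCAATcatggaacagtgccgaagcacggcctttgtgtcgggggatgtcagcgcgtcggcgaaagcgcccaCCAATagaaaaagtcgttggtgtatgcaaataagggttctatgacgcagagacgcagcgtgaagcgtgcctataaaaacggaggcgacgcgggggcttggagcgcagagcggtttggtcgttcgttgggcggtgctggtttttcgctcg
The H3F3A window held 1 CCAAT box and no TATA box (letters TATAAA) with 74.0% GC, and the H3F3B window held 4 CCAAT boxes and 1 TATA box with 54.0% GC. Among 35116 promoters of this length, 34.6% held at least 1 CCAAT box, 0.991% held 4 or more, and 11.5% held a TATA box on either strand. Whether these motifs have a part in the difference between H3F3A and H3F3B was not tested.

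The share of H3F3A in the counts of the pair differed between the groups. H3F3A took 46.1% and 45.2% of the counts of the pair in the controls, but 25.1% and 22.8% in the libraries labelled PRMT5 KD, a difference of -21.7 percentage points. The groups did not overlap. With 2 libraries per group the exact permutation test, two-sided, cannot go below p = 0.333, which is the value it gave. These shares are of counts not divided by the length of the MANE transcript (1070 bases for H3F3A, 2705 for H3F3B). Per kilobase, H3F3A had 74.0 and H3F3B 34.8 CPM in control, and 76.2 and 95.6 CPM under the PRMT5 KD label. Reads of the pair are shared with near-identical copies, since the estimated counts of H3F3A and H3F3AP4 add up to whole numbers in every library, as do those of H3F3B and H3F3C. The copy took 14.4% to 16.3% of the sum for H3F3A and 0.871% to 0.972% for H3F3B. With the copies added to their genes, a choice made after seeing the data, the log2 fold change was 0.03 for H3F3A and 1.46 for H3F3B. The exons of H3F3B overlap those of UNK on the opposite strand by 179 bases, and UNK had 2152 to 2629 counts per library against 3514 to 12457 for H3F3B.

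**Figure D3:**
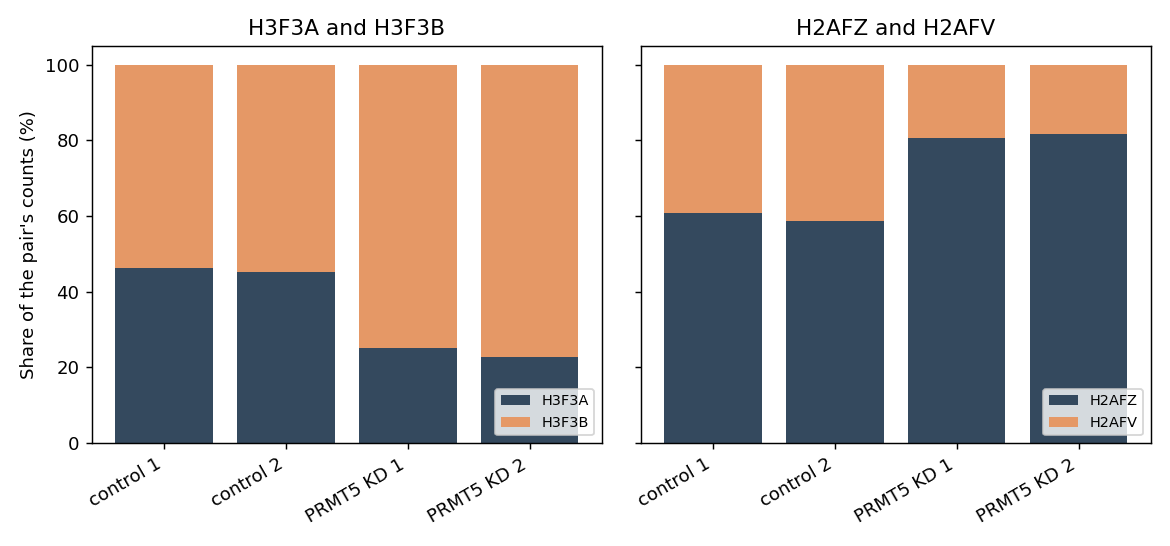
Share of the counts of each gene pair (percent, bars add up to 100) taken by H3F3A and H3F3B on the left and by H2AFZ and H2AFV on the right, in the 4 libraries. Counts are not divided by transcript length. The share of H3F3A is 46.1% and 45.2% in the controls against 25.1% and 22.8% in the other libraries, and that of H2AFZ is 60.8% and 58.6% against 80.6% and 81.7%.

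Of the 7 genes that load H3.3, none was higher and 1 was lower, with a median log2 fold change of 0.08. Of all genes tested, 21.2% were called higher and 24.3% lower. ATRX, the helicase that deposits H3.3 at telomeres and repeats together with DAXX, had 189 and 206 CPM in control and 109 and 95.0 CPM under the PRMT5 KD label (log2 fold change -0.95 ± 0.12, adjusted p = 0.00147). DAXX had a log2 fold change of -0.26 (adjusted p = 0.0929). HIRA, which deposits H3.3 at active genes, and its partner UBN1 had log2 fold changes of 0.30 (adjusted p = 0.0630) and 0.27 (adjusted p = 0.0826). CABIN1, another subunit of the HIRA complex, was at -0.49 with an adjusted p of 0.00836, just short of the fold change threshold. The count of calls in this list rose to 2, with 1 in each direction, when PRMT5 KD 1 was left out and when total counts were the scale.

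Of the H2A.Z genes, H2AFZ was higher and H2AFV did not pass the test. H2AFZ (chr4:99948086-99950355, minus strand, H2AZ1, 5 exons) encodes H2A.Z.1 and had 99.3 and 97.7 CPM in control and 253 and 258 CPM under the PRMT5 KD label. The replicates lay close together in both groups, and the gene was 2.59-fold higher (log2 fold change 1.37 ± 0.11, adjusted p = 0.000363). H2AFV (chr7:44826791-44848087, minus strand, H2AZ2, 5 exons) encodes the closely related H2A.Z.2 and had 64.0 and 68.9 CPM in control and 61.0 and 57.7 CPM under the PRMT5 KD label. The groups did not overlap, yet the log2 fold change of -0.16 ± 0.11 did not pass the test (adjusted p = 0.246). Its sign turned with total counts of the tested genes as the scale (0.01). H2AFZ took 60.8% and 58.6% of the counts of the pair in the controls, but 80.6% and 81.7% in the libraries labelled PRMT5 KD, a difference of 21.4 percentage points (exact permutation test, two-sided, p = 0.333, the smallest possible). Here too counts were not divided by the length of the MANE transcript (866 bases for H2AFZ, 3026 for H2AFV). Per kilobase, H2AFZ had 114 and H2AFV 22.0 CPM in control, and 295 and 19.6 CPM under the PRMT5 KD label.

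The promoters of the H2A.Z pair are shown because 1 of these 2 related genes passed the test, from RefSeq on GRCh38.p14 over the same window. Capitals mark CCAAT boxes and the cell cycle homology region (CHR) element TTTGAA, on either strand.
H2AFZ, chr4:99950226-99950525, minus strand: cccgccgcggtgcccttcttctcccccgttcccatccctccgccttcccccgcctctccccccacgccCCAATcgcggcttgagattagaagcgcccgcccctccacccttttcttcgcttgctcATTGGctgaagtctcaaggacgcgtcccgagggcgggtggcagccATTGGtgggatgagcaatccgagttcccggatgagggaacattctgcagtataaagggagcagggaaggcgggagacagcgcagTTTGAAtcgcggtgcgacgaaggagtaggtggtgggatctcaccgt
H2AFV, chr7:44848038-44848337, minus strand: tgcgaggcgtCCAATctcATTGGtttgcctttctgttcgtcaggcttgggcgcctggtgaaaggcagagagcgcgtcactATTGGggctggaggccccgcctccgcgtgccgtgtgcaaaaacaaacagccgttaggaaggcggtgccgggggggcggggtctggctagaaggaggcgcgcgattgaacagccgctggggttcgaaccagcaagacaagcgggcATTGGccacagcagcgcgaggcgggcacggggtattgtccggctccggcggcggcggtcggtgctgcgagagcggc
The H2AFZ window held 3 CCAAT boxes, 1 CHR element 4 bases after the start and 1 TATA box. The H2AFV window held 4 CCAAT boxes, no CHR element and no TATA box. The CHR letters were present in 15.2% of the 35116 promoters and 3 or more CCAAT boxes in 3.26%. The part of these motifs in the difference between the 2 genes was not tested.

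Of 12 genes for the exchange and removal of H2A.Z, 5 were higher and none was lower, with a median log2 fold change of 0.26. Over all genes tested, 21.2% were called higher and 24.3% lower, 45.5% in either direction. ANP32E, a chaperone that removes H2A.Z from nucleosomes, had 50.2 and 51.1 CPM in control and 99.1 and 110.1 CPM under the PRMT5 KD label (log2 fold change 1.05 ± 0.11, adjusted p = 0.000794). ACTL6A (0.82), YEATS4 (0.79) and RUVBL2 (0.58), subunits of the exchange complexes, and VPS72 (0.57), which binds H2A.Z within them, were higher too. SRCAP and EP400, the catalytic subunits, had log2 fold changes of 0.02 (adjusted p = 0.904) and -0.26 (adjusted p = 0.147). The number called in this list was 2 without control 2, and 3 after the correction for length and GC content.

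H2AFX showed the largest log2 fold change of the 9 variants. H2AFX (chr11:119093874-119095465, minus strand, H2AX, 1 exon) had 21.5 and 21.0 CPM in control and 87.1 and 86.9 CPM under the PRMT5 KD label. Both groups were tight and well apart, a 4.10-fold difference (log2 fold change 2.04 ± 0.11, adjusted p = 0.000205). The median of the replication-dependent histone genes was 2.04 as well, but with the correction for length and GC content H2AFX stood at 1.93 and that median at 1.35. H2AX is known to have both a short mRNA with a histone stem-loop and a longer polyadenylated one.

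Because H2AX stands between the variants and the S-phase histones, its stem-loop is shown, read from the GRCh38 transcript with capitals for the paired arms, at chr11:119094898-119094913 on the minus strand.
H2AFX stem-loop: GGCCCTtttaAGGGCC
The hairpin begins at base 553 of the 1592-base transcript, in the 3′ UTR, and 1024 bases follow it. The same search, by the letters of the histone stem-loop consensus, found it in transcripts of 1 of the 9 variants, in 61 of 65 replication-dependent histone genes (93.8%) and in 0 of 11730 other tested genes with a transcript. The deposited counts are per gene and cannot tell the short from the long H2AFX mRNA.

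The H2AFX promoter is shown from RefSeq on GRCh38.p14, with CCAAT boxes and the CHR element in capitals.
H2AFX, chr11:119095416-119095715, minus strand: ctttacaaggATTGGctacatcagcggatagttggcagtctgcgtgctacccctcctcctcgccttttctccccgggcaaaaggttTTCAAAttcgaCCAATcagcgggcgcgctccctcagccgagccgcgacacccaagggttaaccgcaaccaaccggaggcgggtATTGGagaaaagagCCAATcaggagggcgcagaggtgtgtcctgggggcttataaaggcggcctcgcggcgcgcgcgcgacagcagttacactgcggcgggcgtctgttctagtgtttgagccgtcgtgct
It held 4 CCAAT boxes, 1 CHR element on the opposite strand 164 bases before the start, and 1 TATA box.

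Of 9 genes that phosphorylate H2AX or bind or reverse the mark, 2 were higher and 2 were lower. These counts were near the shares over all genes tested (21.2% higher and 24.3% lower). The median log2 fold change of the list was -0.13 (0.05 with total counts as the scale). The kinases ATM and PRKDC were lower. ATM had 394 and 428 CPM in control and 192 and 187 CPM under the PRMT5 KD label (log2 fold change -1.12 ± 0.12, adjusted p = 0.000803), and PRKDC fell from 1141 and 1155 CPM to 593 and 531 CPM (log2 fold change -1.03 ± 0.14, adjusted p = 0.00167). The third kinase, ATR, was at -0.43 with an adjusted p of 0.0137, short of the fold change threshold. RNF8, a ubiquitin ligase recruited to the phosphorylated histone, was higher (0.97 ± 0.14, adjusted p = 0.00226), as was MDC1, which binds it directly (0.62 ± 0.13, adjusted p = 0.00745). H2AFX was thus higher while ATM and PRKDC were lower, and the phosphorylated protein was not measured.

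The remaining H2A variants differed in opposite directions. H2AFY (chr5:135334381-135399914, minus strand, MACROH2A1, 9 exons) encodes macroH2A1, an H2A with a large non-histone domain. It had 64.4 and 62.0 CPM in control and 104 and 105 CPM under the PRMT5 KD label, a 1.65-fold difference without overlap (log2 fold change 0.73 ± 0.10, adjusted p = 0.00202). H2AFY shares 4706 exonic bases with PITX1-AS1 on the opposite strand, which is listed as C5orf66 and had 16 to 55 counts per library. H2AFJ (chr12:14774405-14778002, plus strand, H2AJ, 1 exon) encodes H2A.J, a variant known to accumulate in senescent cells. It had 18.2 and 19.7 CPM in control and 8.74 and 6.19 CPM under the PRMT5 KD label. Both libraries labelled PRMT5 KD lay below both controls, at 0.393 of the control level (log2 fold change -1.35 ± 0.20, adjusted p = 0.00218), and H2AFJ was the single variant that fell. Its promoter window held 3 CCAAT boxes and no CHR element, and that of H2AFY held neither.

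CENPA was higher, with the largest error of the 9 genes. CENPA (chr2:26764289-26801067, plus strand, 5 exons) encodes the H3 variant of the centromere and had 9.42 and 5.36 CPM in control and 14.9 and 15.3 CPM under the PRMT5 KD label. The groups did not overlap, and the log2 fold change was 1.04 ± 0.27 (adjusted p = 0.0208). The 2 control libraries differed 1.76-fold, more than for any other variant. The call was lost without control 2 (log2 fold change 0.69, adjusted p = 0.0673), without PRMT5 KD 1 (1.09, adjusted p = 0.0628), without PRMT5 KD 2 (1.02, adjusted p = 0.0748) and after the correction for length and GC content (0.73, adjusted p = 0.0589), and the value was 1.50 without control 1. CENPA shares 138 exonic bases on the same strand with SLC35F6, which had 5275 to 7503 counts per library.

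The CENPA promoter is shown from RefSeq on GRCh38.p14 because it carries each of the searched cell cycle elements. Capitals mark CCAAT boxes, the CHR element and an E2F match (TTTCCCGC, from a search for TTTCCCGC, TTTGGCGC, TTTCGCGC and TTTGCCGC on either strand).
CENPA, chr2:26785806-26786105, plus strand: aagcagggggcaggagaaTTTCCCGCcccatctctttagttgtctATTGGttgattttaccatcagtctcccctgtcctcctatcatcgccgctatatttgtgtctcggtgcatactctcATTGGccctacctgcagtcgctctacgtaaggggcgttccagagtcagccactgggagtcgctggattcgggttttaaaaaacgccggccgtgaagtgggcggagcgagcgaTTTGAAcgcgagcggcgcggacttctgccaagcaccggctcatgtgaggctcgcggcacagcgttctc
It held 2 CCAAT boxes, 1 CHR element 18 bases before the start and 1 E2F match, a motif found in 3.31% of the 35116 promoters. None of the other 8 variant promoters searched held an E2F match. The CHR element was present in 3 of the 9 windows, those of H2AFZ, H2AFX and CENPA, all of which rose, and absent from those of H3F3B, H2AFY and H1FX, which rose too. It was also absent from those of H3F3A, H2AFV and H2AFJ, and its part in the differences was not tested.

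All 10 genes of CENP-A deposition were called higher, against 21.2% of all genes tested. The median log2 fold change of these 10 genes was 1.08. The number called was 7 without control 1, without control 2 or without PRMT5 KD 2. CENPN, which binds the CENP-A nucleosome, had 27.5 and 20.3 CPM in control and 89.4 and 85.7 CPM under the PRMT5 KD label (log2 fold change 1.87 ± 0.17, adjusted p = 0.000497). HJURP, the dedicated CENP-A chaperone, had 27.3 and 20.8 CPM in control and 72.9 and 84.6 CPM under the PRMT5 KD label (1.71 ± 0.17, adjusted p = 0.000609). OIP5 (1.63) and MIS18A (1.31), subunits of the complex that licenses the centromere, were higher as well. Control 2 was below control 1 for CENPN and HJURP and also for OIP5 (5.23 and 2.76 CPM) and PLK1 (48.9 and 30.5 CPM), as it was for CENPA and for the summed cell cycle markers (993 and 755 CPM). PLK1 belongs to the deposition list and is a mitotic kinase.

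**Figure D4:**
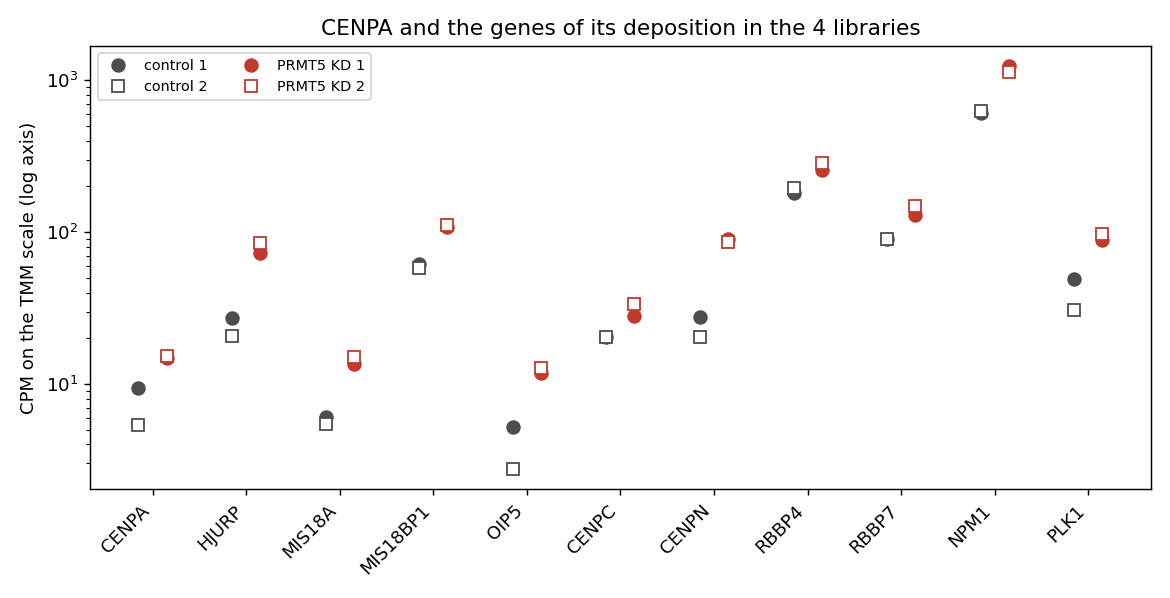
CPM on the TMM scale (log axis) of CENPA and the 10 genes of its deposition, with control libraries in grey, libraries labelled PRMT5 KD in red, circles for replicate 1 and open squares for replicate 2. The groups are separate for every gene shown, and control 2 lies visibly below control 1 for CENPA, HJURP, OIP5, CENPN and PLK1.

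Among the linker histone variants, H1FX rose. H1FX (chr3:129314771-129316286, minus strand, H1-10, 1 exon), which encodes H1X, had 65.9 and 66.8 CPM in control and 117 and 122 CPM under the PRMT5 KD label. The groups did not overlap and lay 1.80-fold apart (log2 fold change 0.85 ± 0.10, adjusted p = 0.00124). Its antisense neighbour H1FX-AS1 had 22 to 44 counts per library. The H1FX promoter window held 1 TATA box and none of the other motifs.

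Per kilobase of the MANE transcript, H2AFZ was the most abundant variant transcript in both groups. Its level was 114 ± 1.34 CPM per kilobase in control (SD, n = 2) and 295 ± 4.41 under the PRMT5 KD label. In control H3F3A came next at 74.0 ± 4.14, followed by H1FX (43.8 ± 0.444), H3F3B (34.8 ± 2.85), H2AFY (33.0 ± 0.917), H2AFJ (30.6 ± 1.70), H2AFV (22.0 ± 1.14), H2AFX (13.3 ± 0.222) and CENPA (5.32 ± 2.07). Only H3F3B and H2AFY, as neighbours in this order, overlapped in their replicates. Under the PRMT5 KD label H3F3B stood in the second place at 95.6 ± 1.63, ahead of H1FX (78.8 ± 2.68) and H3F3A (76.2 ± 8.01). H1FX and H3F3A overlapped there, as did H2AFX (54.7 ± 0.0802) with H2AFY (54.5 ± 0.436) and H2AFJ (12.0 ± 2.91) with CENPA (10.9 ± 0.230), while H2AFV stood between these pairs at 19.6 ± 0.766. H3F3B thus passed H3F3A, and by MANE length H2AFX moved from below H2AFJ and H2AFV to above both. The order depends on the length used. Over all annotated exons of each gene, H1FX was first in control (43.8 CPM per kilobase), next to H2AFZ (43.4), and H2AFX (13.3) already stood above H2AFV (9.49) and H2AFJ (5.70).

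The summed counts of the variants were lower relative to the replication-dependent histone genes of their class under the PRMT5 KD label, for H2A and for H3. Of 65 replication-dependent genes listed, 59 were tested, 57 were higher and 1 (HIST1H3E) was lower, against 21.2% and 24.3% of all genes tested. With the correction for length and GC content 46 were higher, 44 with a replicate block added, and the lower call was lost without control 1 and without control 2. For H2A, the 5 variants had 1.58 and 1.76 times the counts of the 17 replication-dependent genes in the controls, but 0.524 and 0.434 times these counts under the PRMT5 KD label, a difference of -1.81 in the log2 ratio. HIST2H2AA3 alone held 43.3% to 63.6% of the replication-dependent H2A counts, and the difference was -1.40 without it. HIST2H2AA4 (248 and 532 counts in control, 3103 and 3279 under the PRMT5 KD label) was kept in that value. Both genes have fractional counts, and reads shared between them were not examined. For H3, the ratio of H3F3A, H3F3B and CENPA together was 1.38 and 1.72 in the controls against 0.674 and 0.669 (log2 difference -1.20). In neither class did the groups overlap, and the exact permutation test, two-sided, gave its smallest possible p of 0.333 each time. Counts were not divided by transcript length, and the MANE transcripts of the H2A variants alone run from 620 bases (H2AFJ) to 3026 bases (H2AFV). The ratios therefore do not tell which transcripts were more numerous within a library. The summed level of the variants themselves was higher in both classes, at 514 and 514 CPM for H2A under the PRMT5 KD label against 268 and 269 CPM in control. The labels do not say whether poly(A) RNA was selected, and the part of selection in these ratios was not tested.

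**Figure D5:**
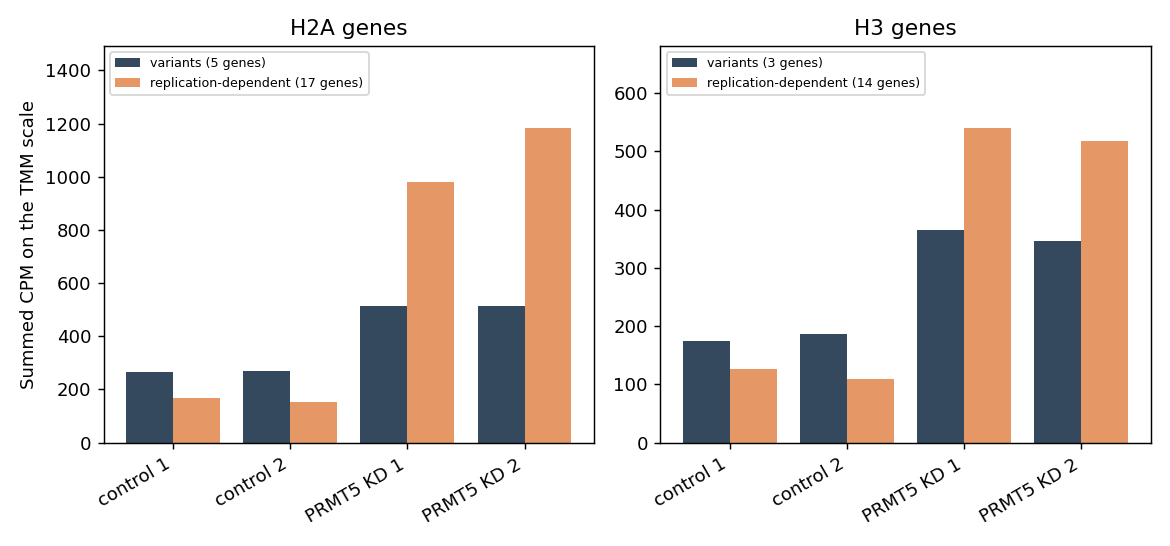
Summed CPM on the TMM scale of the variant genes and of the replication-dependent genes of the H2A and H3 classes in the 4 libraries, with bars from 0 and a separate axis for each class. In these sums variants exceed replication-dependent genes in both control libraries of either class. Replication-dependent genes exceed variants in both libraries labelled PRMT5 KD. The sums are not divided by transcript length, so the order of the bars within a library is not one of transcript numbers.

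Chaperones that serve histones in general were mostly higher, with 8 of 11 called higher, none lower and a median log2 fold change of 0.74. Over all genes tested, 21.2% were called higher and 24.3% lower, with a median of -0.01. At a fold change threshold of 1, 4 of these chaperones were called. ASF1B (2.83 ± 0.15, adjusted p = 0.000197), CHAF1A (2.17 ± 0.15, adjusted p = 0.000309) and CHAF1B (2.13 ± 0.21, adjusted p = 0.000645), which place new H3 and H4 behind the replication fork, and NASP (1.34 ± 0.11, adjusted p = 0.000426), which stores soluble H3 and H4, led this list. ASF1A, the relative of ASF1B that works with HIRA, was at 0.40 with an adjusted p of 0.0401, short of the fold change threshold. In the cell cycle list, RRM2 (3.35), TYMS (2.72), MCM3 (2.22) and CCNA2 (2.12) had the largest log2 fold changes, above that of every variant.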

How the data were processed

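RNA-seq was analysed for 4 UMSCC74B libraries. The authors deposited estimated counts per gene name, without normalization; per the labels the tools were FastQC, Trim Galore, STAR, Salmon and DESeq2 on GRCh38, with versions and the roles of the tools not given in the sources used here, whereas the methods of the paper describe FeatureCounts. Counts of equal names were summed, 28 names turned into dates were left out, and values were rounded. Names were matched to GENCODE release 44. The test covered the 11898 protein-coding genes that reached an RPKM of 0.5 in both libraries of either group and used edgeR 4.0.16 with its quasi-likelihood test (R 4.3.3, TMM factors, robust dispersion, no replicate term), with Benjamini-Hochberg adjustment. TMM factors were 0.934 to 1.09. Total counts on named genes were 52185289 to 65964558, and intervals were not given, since counting error is small against the spread between libraries. Protein-coding names held 71.5% of these counts in PRMT5 KD 1 and 79.5% in PRMT5 KD 2, against 80.4% and 81.4% in control. Where total counts were the scale, they were those of the tested genes, 41849454 to 53529901 per library.

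One member and one marker are not reported here, nor the ratios that need them. The rule for the members used gene names only, but the members, lists, tests and alternatives were all chosen with earlier results of these data known. Genes were named as all members, PRMT5, and up to 4 called genes per list with the largest absolute log2 fold change and an average log2 CPM of at least 3, plus list genes on which a result turns. HIST1H3E, DAXX, HIRA, UBN1, CABIN1, ASF1A, SRCAP, EP400, ATR, BAZ1B, VPS72 and PLK1 were named after their values were seen. Ratios were compared with exact permutation tests (scipy 1.17.1). Motifs were searched in RefSeq promoters of GRCh38.p14 as exact letters on both strands, and all 9 members described matched. The procedure was tested on simulated data in which 200 of 11898 genes had a log2 fold change of 1.5: it called 98.5% of these 200, while 11.7% of all calls fell on genes left unchanged. Replicate libraries differed by more than sampling noise (chi-square per gene 52.3 in control and 127 under the PRMT5 KD label), so none was counted as a copy. Alternatives were DESeq2 1.42.0, other scalings and filters, a length and GC correction, a replicate block, a fold change threshold of 1 and each library left out. Same-numbered libraries deviated with a correlation of -0.101, and no source says that the numbers pair them.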

Additional observations from a re-analysis of the deposited data

Results flagged for a closer look

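Among the 10 other variant genes, of which H3F3C alone was tested, 2 untested genes with more than 3 counts in each library labelled PRMT5 KD were above both control libraries. H2AFY2, which encodes macroH2A2, had a mean of 1.89 CPM under the PRMT5 KD label (2.19 and 1.59 CPM) and 1.04 CPM in control (1.01 and 1.06 CPM), below the filter on low values. H2AFB2 had a mean of 0.190 CPM under the PRMT5 KD label and 0.0835 CPM in control, from 2.65 to 10.1 estimated counts per library, and it shares reads with the near-identical H2AFB1 and H2AFB3, so that its value is uncertain. Groups of 2 libraries are too small for a test of outlying libraries. H3F3C was called higher (log2 fold change 1.46, adjusted p = 0.00564, edgeR), from reads that it shares with H3F3B. The call of H3F3C was lost without control 1, without control 2 and with the length and GC correction in a replicate block, and its value was 0.87 with the length and GC correction.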

How the results depend on the processing

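Over 16 alternatives, 134 of 144 values of single variants kept their direction and their side of the threshold, 5 lost the call and 5 changed sign. The 5 lost calls were all of CENPA, with log2 fold changes of 0.73 (adjusted p = 0.0589) under the length and GC correction, 0.78 (adjusted p = 0.0587) when this was combined with a replicate block, and 0.69 to 1.50 when 1 library was left out, where the call was lost without control 2, PRMT5 KD 1 or PRMT5 KD 2. The sign changed for H2AFV with total counts (0.015) and for H3F3A under the length and GC correction (-0.13, and -0.13 with the replicate block added). For H3F3A it also changed without control 1 (-0.0067) and without PRMT5 KD 1 (-0.037). The value without PRMT5 KD 2, 0.15, kept its sign. Neither gene was called in any of these. The median of the variants was 1.03 with total counts, 0.90 without a filter, 0.91 with filterByExpr, 0.76 with the length and GC correction, 0.78 with the block added, 0.94 over all gene names, and 0.70 to 0.91 with 1 library left out. PRMT5 ranged from 0.57 to 0.78 with 1 library left out and lost its call without control 2. At a fold change threshold of 1, 2561 genes (1032 higher, 1529 lower) and 5 variants (4 higher, 1 lower) were called, and with 1 library left out 3102 to 5722 genes were called, with the lone library of a group assumed to vary like the other group. The median of the H2AX phosphorylation list was 0.048 with total counts, and 57 of 263 values of the lists moved. Without its largest replication-dependent gene the log2 class difference was -1.40 for H2A; the causes were not tested.

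The replicate block gave 5190 calls against 5416 without it, and 7 variants in both; the crossed pairing, chosen after seeing the data, gave 5483. The block changed no call of a variant. With 2 libraries per group, H2AFV and H3F3A are not shown to be unaffected.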
